A study of Mus musculus with 15 samples.

Results

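The members were 10 listed cation channel genes, gated by force, temperature or intracellular signals: Piezo1, Piezo2, Trpv1, Trpv2, Trpv3, Trpv4, Trpm4, Trpm7, Trpm8 and Trpc1. Each was found by its symbol among the 55357 gene identifiers counted in mouse cornea. All 10 were present once in every table, 7 passed the filter on low counts used for testing, and Trpv1, Trpv2 and Trpm8 did not. The study compared whole-cornea RNA from OPA1+/+ and OPA1+/- mice at 3 and 6 months of age. There were 4 libraries each from OPA1+/+ corneas at 3 months, OPA1+/- corneas at 3 months and OPA1+/- corneas at 6 months, and 3 from OPA1+/+ corneas at 6 months. OPA1 is the GTPase that fuses inner mitochondrial membranes, and OPA1+/- animals carry 1 altered copy of a kind that the labels do not describe. Nothing in the labels says whether libraries came from separate animals, so p-values measure the spread between these libraries.

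PIEZO proteins are very large trimeric channels that open when the membrane is stretched. TRP channels are tetramers that admit cations in response to heat, cold, ligands, osmotic swelling or phospholipase C signalling. In the cornea, epithelial cells carry some of these channels, while PIEZO2, TRPV1 and TRPM8 are known from the sensory axons that end among the epithelial cells and report touch, irritants and cold. The cell bodies of those axons lie in the trigeminal ganglion, outside the tissue sampled here. The list was therefore read as 7 channels that cells resident in the cornea can make, called epithelial-borne here (Piezo1, Trpv2, Trpv3, Trpv4, Trpm4, Trpm7 and Trpc1), and 3 nerve-borne channels (Piezo2, Trpv1 and Trpm8). This division came from general knowledge of the channels, and no cell was identified in these bulk libraries. In whole tissue, fewer cells of a type and less RNA per cell cannot be told apart.

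Promoter sequences are shown for 2 abundant epithelial-borne channels, Piezo1 and Trpv4, and for 2 nerve-borne channels, Trpv1 and Trpm8, because the count of CG dinucleotides set these 2 pairs apart. Each sequence holds the 250 bases before and the 50 bases after the annotated start in RefSeq (GRCm38.p6), written 5′ to 3′ on the gene's strand, with every CG in capitals. The positions are chr8:122551280-122551579 on the minus strand for Piezo1, chr5:114658372-114658671 on the minus strand for Trpv4, chr11:73233899-73234198 on the plus strand for Trpv1 and chr1:88306485-88306784 on the plus strand for Trpm8.
Piezo1: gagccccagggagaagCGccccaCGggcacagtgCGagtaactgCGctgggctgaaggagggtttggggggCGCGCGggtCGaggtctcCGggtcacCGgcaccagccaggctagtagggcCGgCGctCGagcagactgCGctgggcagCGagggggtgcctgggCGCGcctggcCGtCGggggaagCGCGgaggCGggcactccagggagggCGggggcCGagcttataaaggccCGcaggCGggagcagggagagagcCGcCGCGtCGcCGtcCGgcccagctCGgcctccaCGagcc
Trpv4: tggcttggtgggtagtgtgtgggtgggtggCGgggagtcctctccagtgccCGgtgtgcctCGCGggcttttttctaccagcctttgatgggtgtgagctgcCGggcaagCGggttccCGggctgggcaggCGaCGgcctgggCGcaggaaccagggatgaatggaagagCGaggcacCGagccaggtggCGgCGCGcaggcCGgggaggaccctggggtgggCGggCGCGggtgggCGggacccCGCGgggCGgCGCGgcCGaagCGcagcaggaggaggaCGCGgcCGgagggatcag
Trpv1: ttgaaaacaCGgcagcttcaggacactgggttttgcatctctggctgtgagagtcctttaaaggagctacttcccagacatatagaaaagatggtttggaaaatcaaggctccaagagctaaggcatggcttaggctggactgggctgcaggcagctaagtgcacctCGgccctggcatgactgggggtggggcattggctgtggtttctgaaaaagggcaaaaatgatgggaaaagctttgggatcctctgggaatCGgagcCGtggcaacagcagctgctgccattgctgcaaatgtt
Trpm8: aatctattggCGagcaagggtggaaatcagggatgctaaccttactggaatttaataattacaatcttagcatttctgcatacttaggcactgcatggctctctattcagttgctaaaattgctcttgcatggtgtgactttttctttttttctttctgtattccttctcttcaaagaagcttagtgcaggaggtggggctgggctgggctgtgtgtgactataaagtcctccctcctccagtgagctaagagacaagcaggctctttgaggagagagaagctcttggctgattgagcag
The Piezo1 window held 34 CG dinucleotides and the Trpv4 window 30, against 4 for Trpv1 and 1 for Trpm8. CG reads the same on both strands. At least 1 CG was present in 94.6% of the 32851 RefSeq promoter windows of this length, with a median of 7. Fewer CG than in Piezo1 were found in 92.3% of those windows, and fewer than in Trpm8 in 5.4%. Entries existed for 8 of the 10 members, and those of Trpm7 (35), Trpc1 (22), Trpv3 (4) and Trpv2 (2, 2 and 7 in 3 entries) completed the set. Trpv3 and Trpv2 are on the epithelial-borne side, so CG count did not divide the 2 classes. Piezo2 and Trpm4 had no entry.

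Total counts ran from 11673240 to 18194946 per library. A count of 0 therefore allowed up to 3 counts, or 0.165 to 0.257 counts per 1000000 library counts (CPM) before scaling, a limit that covers counting error only. The targeted gene matched the labels: Opa1 was at 67.7 ± 2.33 CPM (SD, n = 4) against 50.9 ± 5.06 (n = 4) in OPA1+/- at 3 months, and at 69.2 ± 3.59 (n = 3) against 47.8 ± 1.06 (n = 4) at 6 months (edgeR adjusted p = 0.0193 and 0.000623). Corneal epithelium markers, a list with the cornea-specific keratin Krt12, summed to between 62155 and 74148 CPM and keratocyte markers to between 1322 and 2329 CPM. In 2 libraries, OPA1+/- 3 months replicate 4 and OPA1+/+ 6 months replicate 1, the 8 retina markers summed to 151.1 and 145.2 CPM, against 10.4 to 22.5 CPM in the other 13. Results on Piezo1, Trpv3, Trpv4, Trpm7 and Trpc1 are also given without these libraries, and those on Piezo2 as a range over alternative fits that include their removal. Lens markers summed to as much as 96.0 CPM among OPA1+/- libraries at 3 months and to at most 19.7 CPM in the other groups. Skeletal muscle markers reached 8.51 CPM among OPA1+/+ libraries at 3 months and at most 0.928 CPM in the other groups. The part of lens and muscle transcripts in the channel results was not tested.

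Piezo1 was the most abundant member, and 4 epithelial-borne channels stood well above the other 6. Levels between genes are given as CPM per kilobase of annotated exon, as mean ± SD over 15 libraries. Piezo1 was at 22.9 ± 1.33 CPM per kb. Trpv4, a channel opened by swelling, warmth and lipid ligands, was at 9.56 ± 1.76, and Trpm7, a channel fused to a kinase that admits magnesium, zinc and calcium, was at 8.64 ± 0.353. These 2 did not differ beyond their spread, since Trpv4 was the higher in 10 of 15 libraries. Trpm4, which passes sodium when intracellular calcium rises, was at 6.21 ± 0.444 CPM per kb and below Trpm7 in 15 of 15 libraries. A 15.4-fold step separated Trpm4 from the next member, the warmth-gated keratinocyte channel Trpv3, at 0.404 ± 0.0741 CPM per kb. Piezo2 followed at 0.326 ± 0.0486, and the ranges of Trpv3 and Piezo2 overlapped, with Trpv3 higher in 11 of 15 libraries. Trpc1, a subunit of phospholipase C-linked channels, was at 0.181 ± 0.0704 CPM per kb and lower than Piezo2 in each of the 15 libraries. Trpv2 (0.0702 ± 0.0265), Trpv1 (0.0374 ± 0.0178) and Trpm8 (0.0116 ± 0.0175) closed the order. Neighbouring ranges overlapped from Trpv3 down to Trpm8.

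**Figure D1:**
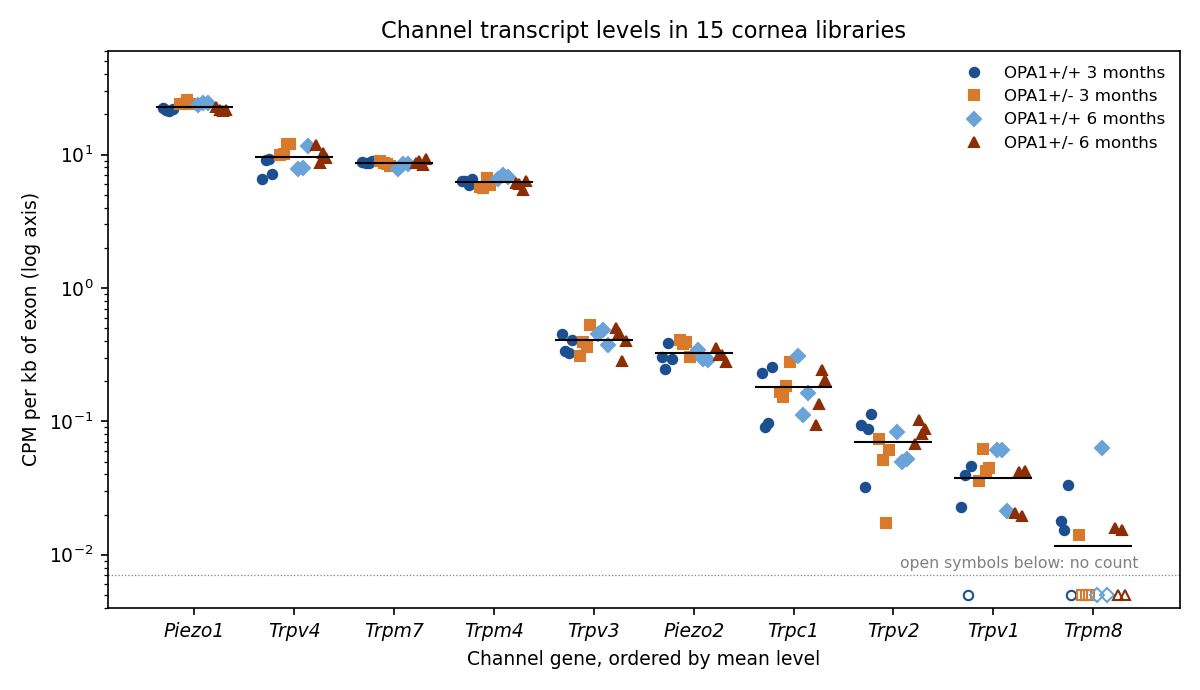
Level of each channel gene in CPM per kb of exon on a log axis, with 1 symbol per library, coloured by genotype and age, and a black line at the mean of 15 libraries. Piezo1, Trpv4, Trpm7 and Trpm4 lie between 5.46 and 25.5 CPM per kb in every library, while the 6 other channels stay at or below 0.526; open symbols at the bottom mark the 1 library without a Trpv1 count and the 8 without a Trpm8 count.

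The 3 channels called nerve-borne here made up less than 1% of the summed member levels in every library. The 3 nerve-borne genes summed to 0.376 ± 0.0514 CPM per kb (SD, n = 15), against 48.0 ± 2.56 for the 7 epithelial-borne genes, a share of 0.777% ± 0.1 with a range of 0.599% to 0.929%. Piezo2 supplied 70.2% to 93.2% of the nerve-borne sum, and which cells its RNA came from was not tested. The per-length ratio of Piezo1 to Piezo2 ran from 55.0 to 88.5. By group, the nerve-borne share was 0.764% ± 0.109 in OPA1+/+ and 0.83% ± 0.112 in OPA1+/- corneas at 3 months. At 6 months it was 0.771% ± 0.149 in the former and 0.743% ± 0.0466 in the latter. At each age the genotype means of this share differed by less than the SD within groups. The sums behind it differed by more at 3 months. The epithelial-borne sum was 45.5 ± 0.616 CPM per kb in OPA1+/+ (44.7 to 46.2) and 50.5 ± 2.09 in OPA1+/- corneas (48.8 to 53.3). The nerve-borne sum was 0.35 ± 0.0492 and 0.422 ± 0.0502, with ranges that overlapped. At 6 months the epithelial-borne sums were 48.8 ± 2.63 and 47.2 ± 1.77, and the nerve-borne sums 0.376 ± 0.0569 and 0.353 ± 0.0292. Being built from chosen members, the share and the sums were not tested.

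The 2 thermal channels of corneal axons were near the counting floor. Trpv1, the capsaicin and heat receptor, gave 28 counts over all libraries, 0 to 3 in each, with 14 libraries holding at least 1. Trpm8, the menthol and cold receptor, gave 11 counts in 7 libraries, and 4 of them came from OPA1+/+ 6 months replicate 2. Pooled over a group, Trpv1 stood at 0.0996 CPM in OPA1+/+ corneas at 3 months (exact Poisson 95% interval 0.0324 to 0.233) and at 0.169 (0.081 to 0.311) in OPA1+/- corneas. At 6 months the values were 0.177 (0.0713 to 0.365) and 0.113 (0.0414 to 0.246). For Trpm8 the pooled values were 0.0797 (0.0217 to 0.204) and 0.0169 (0.000428 to 0.0941) at 3 months, and 0.101 (0.0276 to 0.259) and 0.0376 (0.00456 to 0.136) at 6 months. The intervals cover counting error only and overlap between genotypes at each age for both genes, which is not a test of a difference. In an edgeR fit with no filter the log2 difference between genotypes for Trpv1 was 0.72 ± 0.85 at 3 months and -0.60 ± 0.89 at 6 months (adjusted p = 0.853 and 0.934). For Trpm8 it was -1.76 ± 1.31 and -1.23 ± 1.24 (adjusted p = 0.776 and 0.821). Averaged over ages, the Trpm8 difference was -1.50 ± 0.90 (adjusted p = 0.752). No difference was detected at this depth. Most sensory neuron markers were sparse as well. Of 24 listed genes, 4 passed the filter and 4 had no count in any library: the sodium channels Scn10a and Scn11a, the CGRP gene Calcb and the receptor Mrgprd. Calca and Scn9a had 1 count each in all 15 libraries together. The highest per length were Avil (0.679 CPM per kb), the ATP receptor P2rx3 (0.333), Uchl1 (0.199) and Snap25 (0.126). Avil and P2rx3 had counts in all 15 libraries, 466 and 184 in total. The Snap25 mean rested largely on the 2 libraries with retina transcripts, at 0.379 and 0.698 CPM per kb against 0.0113 to 0.137 in the other 13. Of 12 Schwann cell markers, 6 passed the filter, led by Erbb3 (52.8 CPM per kb), Ngfr (24.2), L1cam (19.3) and Mbp (12.1), which other corneal cells can also express. The glial genes Sox10 (0.0555) and S100b (0.0339), which define Schwann cells more narrowly, were low. None of the genes tested from these 2 lists passed adjusted p = 0.05 in any of the 7 contrasts, and neural and glial markers were not tested as a source of any channel result.

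Piezo1 levels crossed between genotypes with age: it was higher in OPA1+/- corneas at 3 months and lower in them at 6 months. In OPA1+/+ corneas at 3 months it was at 221.6, 215.3, 210.2 and 219.6 CPM, and in OPA1+/- corneas of that age at 237.5, 236.1, 253.7 and 238.0. At 6 months the OPA1+/+ libraries were at 232.7, 240.1 and 240.1 CPM and the OPA1+/- libraries at 224.3, 215.9, 211.4 and 213.4. All OPA1+/- libraries thus lay above all OPA1+/+ libraries at the earlier age and below them at the later one, and no pair of groups that share an age or a genotype overlapped. The log2 difference between genotypes was 0.16 ± 0.04 (SE) at 3 months (edgeR adjusted p = 0.213, rank 42 of 15770 genes) and -0.14 ± 0.04 at 6 months (adjusted p = 0.189). From 3 to 6 months the log2 difference was 0.13 ± 0.04 in OPA1+/+ corneas (adjusted p = 0.233) and -0.16 ± 0.04 in OPA1+/- corneas (adjusted p = 0.136). Averaged over ages the genotype difference was 0.01 ± 0.03, and averaged over genotypes the age difference was -0.01 ± 0.03. The difference between the genotype effects at the 2 ages, tested as an interaction, was -0.29 ± 0.06 on the log2 scale (95% interval -0.41 to -0.17). Piezo1 ranked 5 among 15770 genes in that test, and its edgeR adjusted p of 0.112 did not pass the threshold. DESeq2's Wald test, run as an alternative, gave Piezo1 adjusted p-values of 0.00074 for the interaction, 0.0304 for genotype at 3 months, 0.0414 for genotype at 6 months and 0.0106 for age in OPA1+/- corneas. Groups that separated in opposite directions at both ages were found for 16 of the 15770 tested genes, 0.101%, and Piezo1 was the only member among them. That rule describes the Piezo1 pattern itself, and the share that chance would give was not estimated. By edgeR 0 of the 15770 genes passed for the interaction. The summed level of each cell type marker list overlapped between genotypes at 3 months. Corneal epithelium markers summed to 62155 to 74148 CPM and 66797 to 73852 CPM in OPA1+/+ and OPA1+/- corneas at 3 months, and to 63309 to 65839 and 65170 to 67692 CPM at 6 months. At 6 months the Schwann list was the only cell type list whose sums did not overlap between genotypes, at 640.9 to 666.8 CPM in OPA1+/+ and 571.2 to 628.6 CPM in OPA1+/- libraries. From 3 to 6 months in OPA1+/- corneas 3 lists were lower without overlap, as Piezo1 was. The 8 keratocyte markers went from 1923 to 2228 CPM to 1325 to 1737 CPM, the 12 Schwann markers from 659.0 to 687.2 CPM to 571.2 to 628.6 CPM, and the 7 vessel endothelium markers from 13 to 16.4 CPM to 9.37 to 10.7 CPM. Every gene of these 3 lists had at least 1 count, none passed adjusted p = 0.05 in either of these 2 contrasts by edgeR, and their part in the Piezo1 result was not tested. Piezo1 overlaps Ctu2 on the opposite strand, which had 2660 counts in all against 46001 for Piezo1, and reads were counted by strand. Leaving out the 2 libraries with retina transcripts gave an interaction of -0.31 ± 0.07 (edgeR adjusted p = 0.118).

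Piezo2, the touch channel, showed no difference that passed the test. It was at 5.22, 4.2, 6.6 and 5.02 CPM in OPA1+/+ and 7.03, 6.5, 6.8 and 5.2 CPM in OPA1+/- corneas at 3 months. At 6 months the values were 5.87, 4.99 and 4.97 CPM, and 6.09, 5.37, 5.38 and 4.76 CPM. At the earlier age 3 of 4 OPA1+/- libraries were at 6.5 CPM or more, against 1 of 4 OPA1+/+ libraries, and the groups overlapped at both ages. The log2 difference between genotypes was 0.27 ± 0.14 at 3 months (edgeR adjusted p = 0.598) and 0.03 ± 0.16 at 6 months (adjusted p = 0.969), with 95% intervals of -0.04 to 0.59 and -0.31 to 0.38. With age in OPA1+/- corneas the log2 difference was -0.23 ± 0.14 (adjusted p = 0.655). The lowest OPA1+/- value at 3 months, 5.2 CPM, came from replicate 4, a library with retina transcripts. Over 8 alternative fits, which include the removal of the libraries with retina transcripts, the genotype difference ran from 0.27 to 0.36 at 3 months. It ran from 0.03 to 0.12 at 6 months, and the age difference in OPA1+/- corneas from -0.32 to -0.20. Between 58 and 106 reads per library stood behind each Piezo2 value.

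Trpv4 was higher in every OPA1+/- library than in every OPA1+/+ library at 3 months, but it varied widely within groups. Its OPA1+/+ values at that age were 26.7, 37.0, 37.8 and 29.3 CPM, and its OPA1+/- values 40.2, 41.3, 49.0 and 49.0. At 6 months it was at 31.6, 32.4 and 47.1 CPM in OPA1+/+ and 47.8, 35.0, 41.6 and 38.3 CPM in OPA1+/- corneas. At this age 1 OPA1+/+ library lay among the highest and the groups overlapped. The log2 difference between genotypes was 0.45 ± 0.15 at 3 months (1.37-fold, edgeR adjusted p = 0.417) and 0.14 ± 0.16 at 6 months (adjusted p = 0.843). Averaged over ages it was 0.30 ± 0.11 (edgeR adjusted p = 0.286), and the interaction with age was -0.32 ± 0.22 (95% interval -0.81 to 0.17, adjusted p = 0.84). The largest fold among the 7 tested members at 3 months therefore did not pass the threshold. Without the 2 libraries with retina transcripts the difference was 0.40 ± 0.16 at 3 months and 0.03 ± 0.18 at 6 months.

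The other vanilloid channels gave no difference beyond their spread. Trpv3 was at 2.61, 1.96, 1.89 and 2.38 CPM in OPA1+/+ and 1.79, 2.29, 2.11 and 3.07 CPM in OPA1+/- corneas at 3 months, and at 2.63, 2.83 and 2.17 CPM and 2.93, 2.69, 1.65 and 2.34 CPM at 6 months. High and low libraries were mixed in all 4 groups, and the log2 differences between genotypes were 0.09 ± 0.21 and -0.09 ± 0.23 at the 2 ages (edgeR adjusted p = 0.941 and 0.935). Trpv1 and Trpv3 are neighbours on chromosome 11, with 6145 bases between them in the annotation used for counting, and their levels per length differed more than 10-fold at a mean of 0.0374 and 0.404 CPM per kb. Trpv2, a stretch- and heat-linked channel known from macrophages and neurons, had 63 counts in all, 1 to 6 per library. Its pooled level was 0.359 CPM (exact Poisson 95% interval 0.213 to 0.567) in OPA1+/+ and 0.237 (0.129 to 0.397) in OPA1+/- corneas at 3 months. The later values were 0.279 (0.139 to 0.499) and 0.376 (0.23 to 0.581). The intervals overlapped, and Trpv2 did not pass the filter for the main test. In an edgeR fit with no filter the log2 difference between genotypes was -0.60 ± 0.58 at 3 months (adjusted p = 0.776). At 6 months it was 0.43 ± 0.61 (adjusted p = 0.932).

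**Figure D2:**
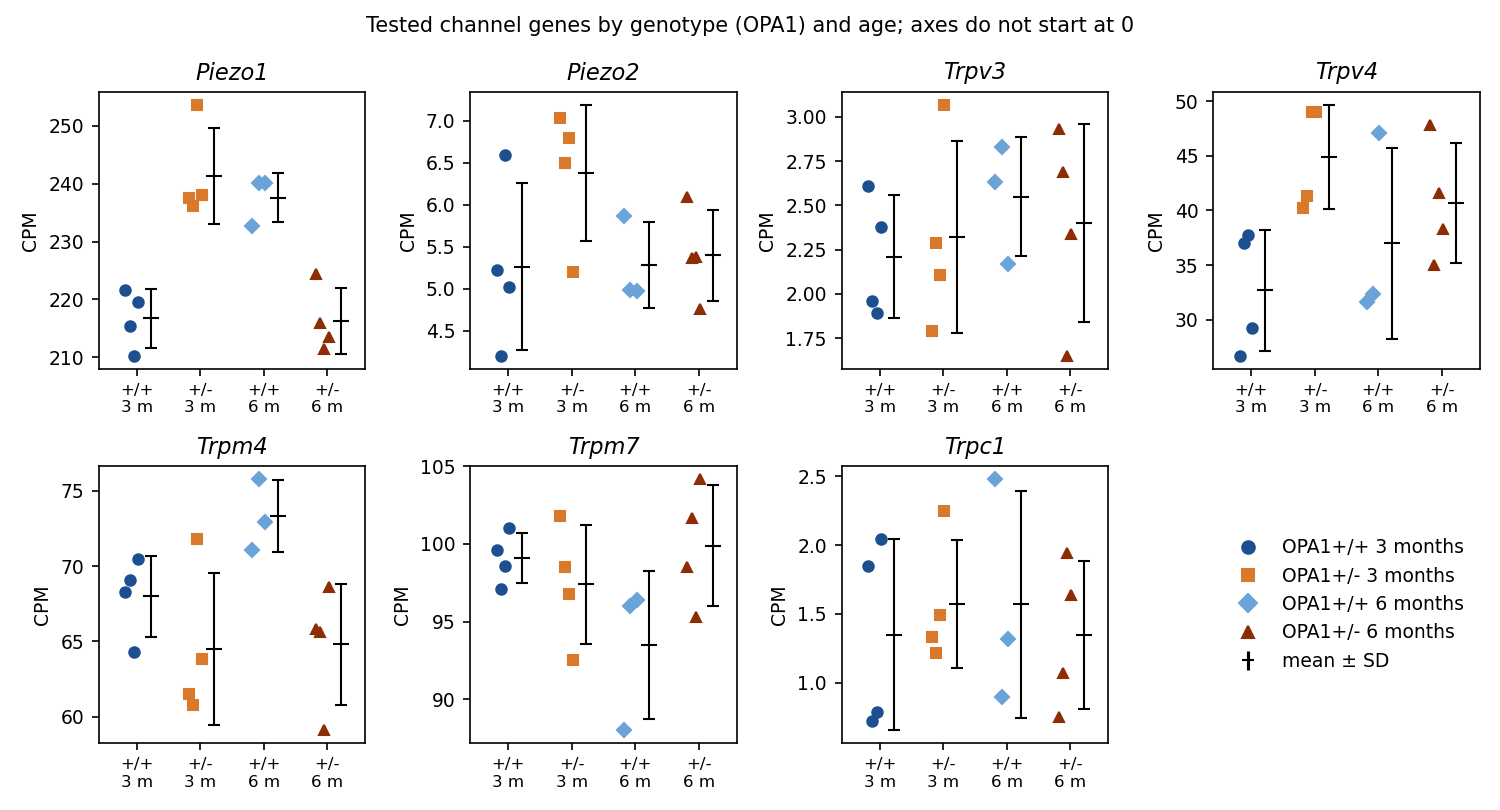
CPM of the 7 tested channel genes in each library, by OPA1 genotype and age in months (m), with the group mean ± SD beside the points; each panel has its own axis, which does not start at 0. Piezo1 sits at 236.1 to 253.7 CPM in OPA1+/- corneas at 3 months and 211.4 to 224.3 at 6 months, while OPA1+/+ corneas go from 210.2 to 221.6 up to 232.7 to 240.1.

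Trpm4 was lower in every OPA1+/- library than in every OPA1+/+ library at 6 months. The OPA1+/+ libraries of that age were at 71.1, 75.8 and 72.9 CPM and the OPA1+/- libraries at 65.8, 65.6, 59.1 and 68.6. At 3 months the values were 68.3, 69.1, 64.3 and 70.5 CPM, and 61.5, 60.8, 71.8 and 63.8 CPM. In the younger OPA1+/- corneas 3 of 4 libraries lay below all OPA1+/+ libraries and the fourth above them. The log2 difference between genotypes was -0.08 ± 0.06 at 3 months (edgeR adjusted p = 0.734) and -0.18 ± 0.06 at 6 months (adjusted p = 0.269). Averaged over ages it was -0.13 ± 0.04 (edgeR adjusted p = 0.173). OPA1+/+ corneas at 6 months also lay above those at 3 months in every library, with a log2 difference of 0.11 ± 0.06 (adjusted p = 0.588). None of these passed the threshold. The Schwann list was lower in OPA1+/- libraries at 6 months too, as given for Piezo1, and its part was not tested. The pseudogene Rpl14-ps1 lies within Trpm4 on the opposite strand and had 224 counts in all against 13550 for Trpm4.

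Trpm7 was the steadiest TRP member in relative terms, at 97.7 ± 4.0 CPM over 15 libraries. In OPA1+/+ corneas at 3 months it was at 99.6, 97.1, 98.6 and 101.0 CPM, and in OPA1+/- corneas at 101.8, 98.5, 96.8 and 92.5. At 6 months the OPA1+/+ libraries were at 88.0, 96.0 and 96.4 CPM and the OPA1+/- libraries at 98.5, 101.7, 95.3 and 104.2. The 2 lowest of the 15 values, 92.5 and 88.0, belonged to the 2 libraries with retina transcripts. The log2 difference between genotypes at 6 months was 0.10 ± 0.05 (edgeR adjusted p = 0.523), and that with age in OPA1+/+ corneas, where the groups did not overlap, was -0.08 ± 0.05 (adjusted p = 0.591). Without those 2 libraries the values were 0.05 ± 0.05 and -0.04 ± 0.05. Whether retina transcripts had a part in this was not tested.

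Trpc1 varied most among the tested members. It was at 1.85, 0.725, 0.786 and 2.04 CPM in OPA1+/+ and 1.33, 1.22, 1.49 and 2.25 CPM in OPA1+/- corneas at 3 months, and at 2.48, 0.895 and 1.32 CPM and 0.752, 1.07, 1.94 and 1.64 CPM at 6 months. The 2 highest values, 2.48 and 2.25 CPM, came from the 2 libraries with retina transcripts, against 0.725 to 2.04 CPM in the other 13. Groups overlapped at both ages. The log2 difference between genotypes was 0.26 ± 0.38 at 3 months (edgeR adjusted p = 0.885) and -0.21 ± 0.42 at 6 months (adjusted p = 0.916). Without the 2 libraries it was 0.01 ± 0.37 and 0.29 ± 0.44, so its sign at 6 months rested on OPA1+/+ replicate 1. The part of retina transcripts in the Trpc1 values was not tested. Each value rested on 10 to 41 reads.

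No tested member passed the threshold of adjusted p = 0.05 in any of 7 contrasts by edgeR's quasi-likelihood test. For genotype at 3 months 0 of 7 members passed, where 0.00634% of all 15770 tested genes did; the smallest member adjusted p was 0.213. At 6 months it was 0 of 7 against 0.323% of all genes, and averaged over ages 0 of 7 against 0.793%. For age the background was 0.0507% in OPA1+/+, 0.0824% in OPA1+/- and 0.412% averaged over genotypes, and for the interaction 0%, each again with 0 of 7 members. At an unadjusted p under 0.05, 2 members passed for genotype at 3 months (Piezo1 and Trpv4, 9.03% of all genes), 2 at 6 months (Piezo1 and Trpm4, 10.2%) and 2 averaged over ages (Trpv4 and Trpm4, 12.4%). Piezo1 alone passed that level for age in OPA1+/+ (10.2% of all genes), for age in OPA1+/- (9.05%) and for the interaction (6.91%), and no member did for age averaged over genotypes (11.9%). DESeq2 called 1 member, Piezo1, in 4 of the 7 contrasts, where it called 0.273%, 1.15%, 0.444% and 0.133% of all genes for genotype at 3 months, genotype at 6 months, age in OPA1+/- and the interaction. In the other 3 contrasts it called 0 members, beside 1.99% of all genes for genotype averaged over ages, 0.742% for age in OPA1+/+ and 1.53% for age averaged over genotypes. By ranges, 2 of 7 members did not overlap between genotypes at 3 months (background 4.58%), 2 at 6 months (11.3%), 3 between ages in OPA1+/+ (8.13%) and 1 between ages in OPA1+/- corneas (6.04%). The median log2 difference of the 7 members was 0.16 at 3 months and -0.09 at 6 months, beside 0.003 and 0.002 over all tested genes. The contrasts share libraries and are not independent of one another.

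**Figure D3:**
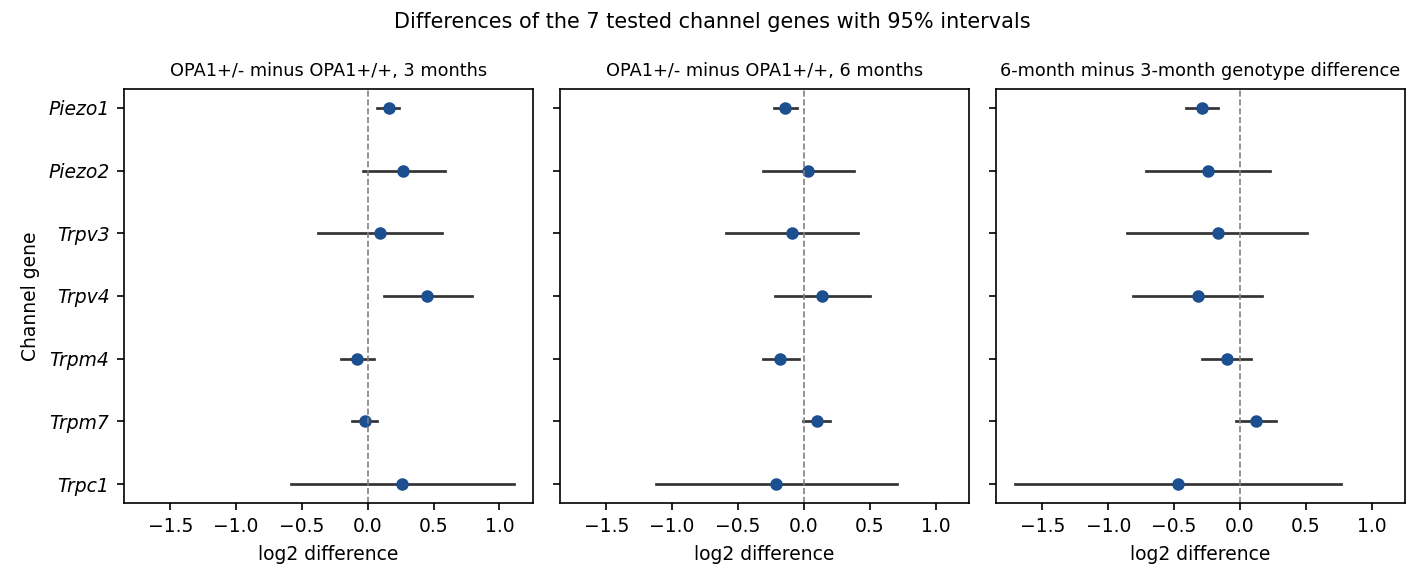
Log2 differences of the 7 tested channel genes with 95% intervals, for OPA1+/- minus OPA1+/+ corneas at 3 months (left), at 6 months (middle) and for the later minus the earlier genotype difference (right). Only the Piezo1 interval lies on opposite sides of 0 at the 2 ages (0.07 to 0.24 and -0.23 to -0.05), and the intervals of Trpc1 and Trpv3 are the widest; they are not adjusted for the number of genes.

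Piezo1 and Trpv4 differed in how far libraries of the same group scattered. The within-group coefficient of variation of Piezo1 was 2.65%, smaller than in all but 4.7% of the 1608 tested genes within 2-fold of its CPM, whose median was 4.77%. For Trpv4 it was 16.2%, and 95.4% of 4401 genes of like level scattered less, with a median of 6.62%. Counting error alone would give Trpv4 4.48%. Trpm7 (3.8% against a median of 5.26%), Trpm4 (5.48% against 5.66%), Piezo2 (13.3% against 14.3%) and Trpv3 (19.4% against 21.2%) lay at or under the genes of their level. Trpc1 scattered by 44.3%, against a median of 26.5% for its level and 24.6% from counting alone.

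**Figure D4:**
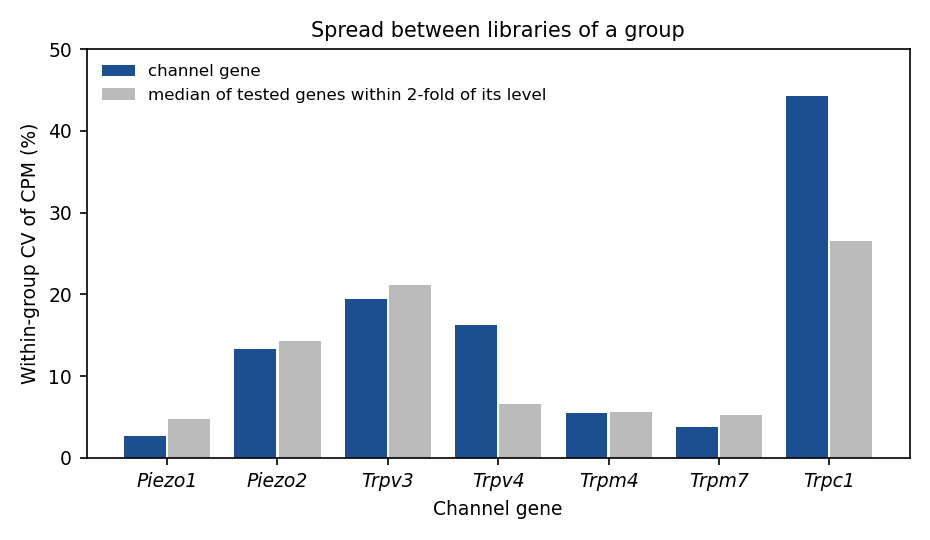
Within-group coefficient of variation (CV) of CPM in percent for each tested channel gene (blue) beside the median CV of tested genes within 2-fold of its level (grey). Trpv4 and Trpc1 rise above their grey bars, at 16.2% and 44.3%, and Piezo1 falls below its own, at 2.65%.

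The genes whose log2 CPM followed each member most closely over the 15 libraries differed from channel to channel. For Trpv4 they were the plexin Plxnb2 (Pearson r = 0.92), AI661453 (0.85) and the inositol trisphosphate receptor Itpr3 (0.85). For Piezo1 they were the transcription factor Srf (0.86), Card10 (0.85) and Wwc2 (0.84), and for Trpm4 Psen2 (0.91), Notch3 (0.88) and Hr (0.86). Piezo2 had Mcub, Pla2g4a and Bid (each 0.84), and Trpv3 had Csrnp1, Brd1 and Nfkbia (each 0.8). Those of Trpm7 were AC138790.1 (0.8), Vps8 (0.79) and Htatsf1 (0.79), which fell to between 0.49 and 0.68 without the 2 libraries with retina transcripts. Trpc1 had Rnf157 (0.84), Miga1 (0.81) and Fdx1 (0.79). These are the highest of many correlations over 15 libraries that share groups and sequencing depth, and they are a description only. Among the members themselves the coefficients were weak, from -0.4 for Piezo2 with Trpm4 to 0.38 for Trpv3 with Trpm4.

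Promoter CG count and transcript level went together among the 8 members with an entry. The 3 windows with 30 or more CG belonged to Piezo1, Trpv4 and Trpm7, each above 8 CPM per kb, and the windows with 7 or fewer to Trpv1, Trpv2, Trpv3 and Trpm8, each below 0.5. Trpc1 departed from this, with 22 CG and 0.181 CPM per kb. Over all genes with an entry, 75.5% of the 6290 genes with 22 or more CG reached 1 CPM per kb, against 9.9% of the 8364 genes with 7 or fewer. With 8 members and no test, this is a description, and a CG count is not a measure of methylation or binding.

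**Figure D5:**
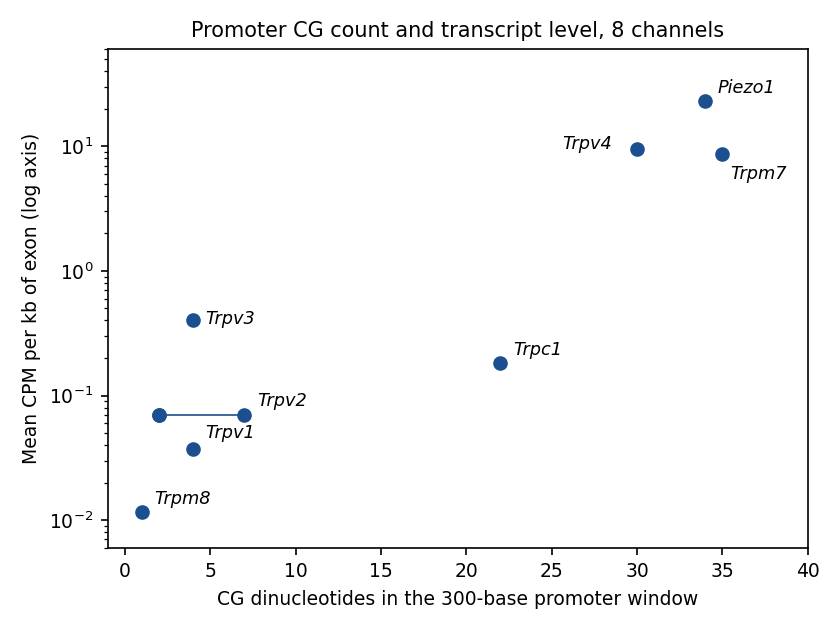
Number of CG dinucleotides in the 300-base promoter window (horizontal axis) against the mean level in CPM per kb of exon (log axis) for 8 channel genes; the 3 entries of Trpv2 (2 of them at the same count) are joined. Piezo1, Trpm7 and Trpv4 lie at the upper right with 30 to 35 CG, and Trpm8 at the lower left with 1.

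Other channels of the family were present beside the members, and none passed the test. Of 20 further TRP genes, 6 passed the filter and Trpc2, Trpc5 and Mcoln3 had no count in any library. Trpm3, a steroid- and heat-gated channel, was at 29.9 ± 1.66 CPM per kb (SD, n = 15), above Piezo1. Pkd2, the polycystin channel of cilia, was at 5.21 ± 0.277, the lysosomal channel Mcoln1 at 3.09 ± 0.174 and the epithelial magnesium channel Trpm6 at 1.59 ± 0.277. The irritant receptor Trpa1, an axon channel not among the members, had 4 counts in all. Of 17 other mechanically gated or related channels 9 were tested, led by Tmc4 (32.4 ± 1.34 CPM per kb), Tmc6 (21.6 ± 0.888) and the osmotically gated Tmem63a (14.8 ± 0.789) and Tmem63b (13.8 ± 0.838). Of 11 reported PIEZO partners 10 were tested, the highest being the junction proteins Cdh1 (115.2 ± 3.19) and Ctnnb1 (105.9 ± 3.92), the calcium pump Atp2a2 (57.5 ± 3.35) and the membrane scaffold Stom (37.7 ± 4.31). Of 25 TRP partners and signalling genes 23 were tested, among them Itpr3 (62.4 ± 4.18) and the calmodulin genes Calm2 (51.1 ± 2.78) and Calm3 (38.8 ± 2.57). In the 7 contrasts 0 genes of these 4 lists passed adjusted p = 0.05 in either direction by edgeR. At an unadjusted p under 0.05 the counts for genotype at 3 months were 0 of 6 TRP genes, 2 of 9 other channels, 2 of 10 PIEZO partners and 6 of 23 TRP partners, beside the 9.03% of all genes given above. At 6 months they were 2, 0, 1 and 7, beside 10.2%.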

How the data were processed

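Single-end, strand-specific RNA-seq of ribosomal RNA-depleted total RNA from 15 mouse cornea libraries was analysed. The deposited values are raw counts: per the file headers, reads were assigned to exons and summed by gene with featureCounts 2.0.1 (reverse strand setting, 2) on GENCODE mouse release 28. The submitters' processing notes name mm10 and DESeq2. The aligner was not given in the sources used here. Symbols were matched for 94.1% of 55357 identifiers. Counts were scaled with TMM factors (0.986 to 1.02) and tested with edgeR 4.0.16 (R 4.3.3, quasi-likelihood F test, robust, 1 mean per group, 11 residual degrees of freedom) on 15770 genes passing filterByExpr, with Benjamini-Hochberg adjustment over all of them and a threshold of 0.05. limma 3.58.1 and DESeq2 1.42.0 served as alternatives, along with other filters and scalings, each library left out in turn, a replicate block and, chosen after seeing the data, the removal of 2 libraries. The code was tested on simulated counts. The members and gene lists were chosen with earlier results of these data known. Named genes were all members, the 4 highest per length of each related list with any past the threshold, the 3 genes most like each member, and Opa1, except where a result is not reported here. Sox10, S100b, Trpa1, Scn10a, Scn11a, Calcb, Mrgprd, Calca, Scn9a, Trpc2, Trpc5 and Mcoln3 were named after their values were seen.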

Additional observations from a re-analysis of the deposited data

Results flagged for a closer look

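The Piezo1 difference between genotypes went in opposite directions at the 2 ages in every library, and the change of the log2 difference from 3 to 6 months was -0.29 (rank 5 of 15770 genes), with an edgeR adjusted p of 0.112. Among the OPA1+/- libraries at 3 months, replicate 3 stood apart for Piezo1, at 253.7 CPM against 236.1 to 238.0 in the other 3 libraries. In the same group replicate 1 was flagged for Trpm8, at 0.0663 CPM, which was 1 count against 0 in the other 3. Any count against 0 in the other 3 meets the rule, so this flag carries no information. In all, 30 pairs of a member and a group of 4 libraries were examined for a single distant library. Chance would flag about 1 in 20 for values on a continuous scale, a rate that does not hold for genes with so few counts.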

How the results depend on the processing

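For 24 gene results, 546 alternative values were read, at most 23 per result, and 531 of them kept their direction and their side of the threshold. These values share fits and libraries and are not independent. DESeq2's Wald test was the exception on calls: it called 1 member, Piezo1, for genotype at 3 months, genotype at 6 months, age in OPA1+/- corneas and the interaction, in place of 0, with the cause not tested. The other scalings, filters, limma, the 2-group fits and the 15 fits without 1 library called 0 members in every contrast they covered. The Piezo1 interaction ran from -0.31 to -0.26 over all fits, and its adjusted p from 0.0683 to 0.549 when 1 library was left out. Signs changed for small differences: without 1 library, the ranges were -0.01 to 0.01 for Piezo1 averaged over ages, -0.03 to 0.12 for Piezo2 at 6 months, -0.10 to 0.19 and -0.20 to 0.06 for Trpv3 at 3 and 6 months, and -0.49 to 0.29 for Trpc1 at 6 months. Removing the 2 libraries with retina transcripts gave -0.10 for Trpv3 at 3 months and 0.29 for Trpc1 at 6 months, with fewer samples. Ordered by CPM in place of CPM per kb, which favours long genes, Trpm7 came 2, Trpm4 3, Trpv4 4, Piezo2 5 and Trpv3 6. Replicate numbers gave no sign of pairing the libraries. Deviations of same-numbered libraries correlated at -0.139 to 0.232 and over 0.1 in 2 of 21 pairs. Those of differently numbered libraries correlated at -0.182 to 0.263 and over 0.1 in 7 of 63 pairs. The labels do not say what the numbers stand for, and these correlations cannot settle it. With the replicate block the Piezo1 interaction was -0.29 (adjusted p = 0.335), 0 members were called, and genes called over the whole table went from 125 to 90 for genotype averaged over ages, from 51 to 48 at 6 months, from 1 to 0 at 3 months, from 8 to 0 and 13 to 3 for age in OPA1+/+ and OPA1+/- corneas, and from 65 to 42 for age averaged over genotypes. Depth limits Trpv1, Trpv2 and Trpm8, whose smallest adjusted p in a fit with no filter was 0.752.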
